A study of Mus musculus with 3 samples.

Results

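The D-type cyclins, their kinases and the retinoblastoma family form the switch that commits a cell to DNA replication, the G1 restriction point. The 10 genes described here were chosen by name from the gene count table: the D cyclins Ccnd1, Ccnd2 and Ccnd3, the kinases Cdk4 and Cdk6, the pocket proteins Rb1, Rbl1 and Rbl2, and the transcription factors E2f1 and E2f3. All 10 were among the 24384 named genes of the table. The samples were 3 libraries of poly(A) RNA from N1E-115 cells, a mouse neuroblastoma line labelled as a neuroblast of wild-type genotype, without treatment, at day 0. There was 1 group, so no condition was compared with another, and the data give the level of each gene and its spread between libraries. N1E-115 is 1 cell line, and nothing in the labels says whether the libraries came from separate cultures, so the spread may be technical.

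As background, D cyclins are made in response to growth signals and bind Cdk4 or Cdk6. The active kinase phosphorylates the pocket proteins, which then release E2F factors from repression, and E2F factors turn on genes of DNA replication. Amplification or high expression of cyclin D1 and Cdk4 is known in human neuroblastoma, and the INK4 proteins block this kinase while the CIP/KIP proteins act chiefly on Cdk2 complexes.

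The libraries held 17731376, 13942014 and 15432235 counts in replicates 1, 2 and 3. Levels are given as TPM, the count per kilobase of annotated exon scaled to the same sum in every library, as mean ± SD over n = 3 libraries, since genes of different length can be compared only per length. A gene was called detected at 1 CPM or more in every library, CPM being the count scaled to the library total without regard to length. By that rule 8 of the 10 genes were detected, against 47.3% of all named genes, and the exceptions were Ccnd2 and Cdk6. All 8 markers of the sympathoadrenal neuroblast were detected, with a median of 539 TPM and a summed level between 3409 and 3680 CPM per library. The summed level of 4 markers each was 6.02 to 7.65 CPM for fibroblasts, 1.56 to 3.87 CPM for blood, 2.65 to 2.92 CPM for glia and 11.1 to 17.3 CPM for endothelium, with Lum, Ptprc, Cd3e and Kdr at 0 counts. Their part in the levels below was not tested.

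Per kilobase of the union of exons, Ccnd1 carried nearly all of the D cyclin RNA, Ccnd3 a small part, and Ccnd2 none that was detectable. With the median coding transcript as the length, the Ccnd3 share was larger, at 34.3%. Ccnd1 encodes cyclin D1 and lies on the minus strand of chromosome 7 (mm10, 144929931 to 144939925). It had 582, 514 and 563 TPM in replicates 1, 2 and 3, from 13376, 9911 and 11590 counts. The mean of 553 ± 35.0 TPM placed it at rank 278 of 24005 genes with a known length. Ccnd3, the cyclin D3 gene on chromosome 17 (47505051 to 47599691, plus strand), had 38.1, 39.4 and 33.0 TPM, from 1630, 1415 and 1264 counts. Every library of Ccnd1 was far above every library of Ccnd3. The log2 ratio of Ccnd1 to Ccnd3 per kilobase was 3.91 ± 0.20 (SD, n = 3), and the summed counts per kilobase stood in a ratio of 15.1 (95% exact interval 14.6 to 15.6, for counting error only).

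Ccnd2 encodes cyclin D2 and lies on the minus strand of chromosome 6 (127125162 to 127152193). It had 0 counts in each of the 3 libraries. A count of 0 allows up to 3 counts, which over the 3 libraries together is 0.0637 CPM, or 0.0239 TPM with its 9409 bases of exon. Against that limit Ccnd1 was at least 23229-fold higher per kilobase and Ccnd3 at least 1540-fold higher. With median coding transcripts as the lengths the first bound was 3089-fold, and without replicate 1 the bounds were 14320-fold and 957-fold. The antisense gene 9330179D12Rik, which overlaps 368 exon bases of Ccnd2, also had no counts. Within the D cyclins, Ccnd1 made up 93.9, 92.9 and 94.5% of the counts per kilobase and Ccnd3 made up 6.14, 7.12 and 5.53%. The dominance of Ccnd1 held in every library, but its size depended on the length assigned to Ccnd3. With 21 annotated transcripts, Ccnd3 has a union of exons of 8775 bases and a median coding transcript of 889 bases. With the median coding transcript as the length, the Ccnd1 share was 65.7%, and without length scaling it was 88.9%.

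**Figure D1:**
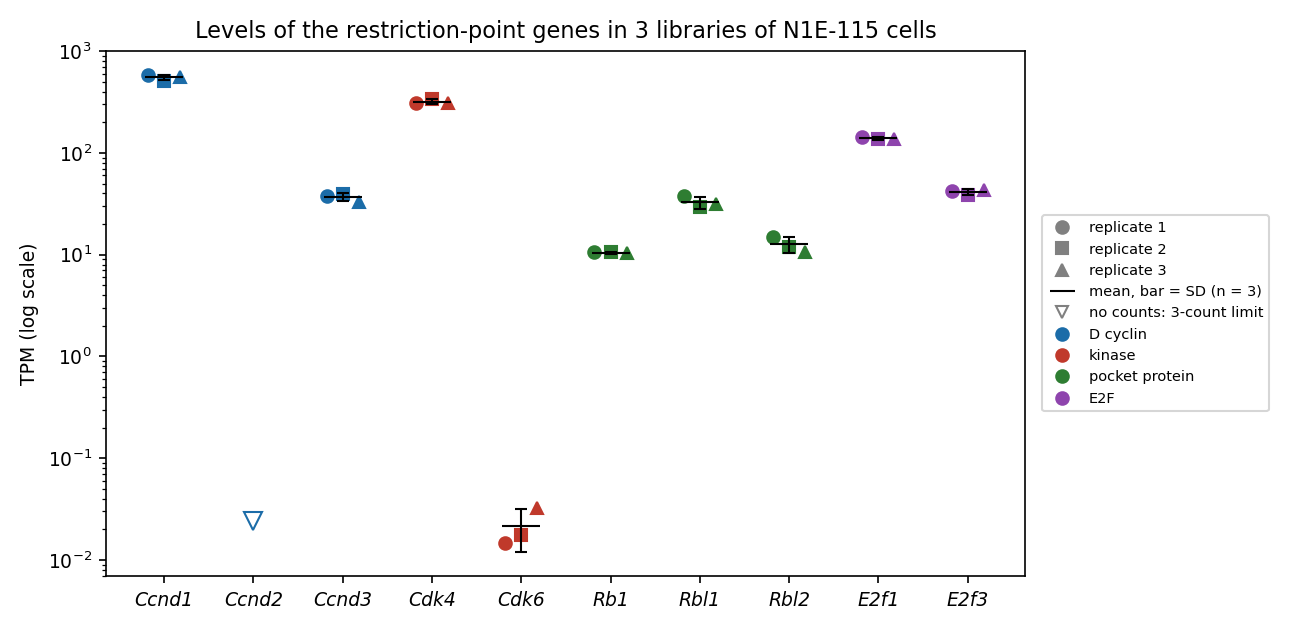
TPM (log scale) of each gene in each of 3 libraries, with the mean and SD (n = 3) in black and colours for the families; the open triangle marks the 3-count limit of a gene without counts. Ccnd1 and Cdk4 sit above 300 TPM in every library, the pocket proteins between 10.3 and 37.3 TPM, and Cdk6 and Ccnd2 at the limit of detection.

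Of the kinases, Cdk4 was abundant and Cdk6 was at the limit of detection. Cdk4, on the plus strand of chromosome 10 (127063534 to 127067920), had 312, 340.1 and 308 TPM in replicates 1, 2 and 3, from 4946, 4522 and 4377 counts. Its mean was 320.1 ± 17.4 TPM, rank 501 of 24005 genes. Cdk6, on the plus strand of chromosome 5 (3341485 to 3531008), had 1, 1 and 2 counts, a level of 0.0147, 0.0175 and 0.0327 TPM. The ratio of Cdk4 to Cdk6 in summed counts per kilobase was 14903 (95% exact interval 5819 to 54704, for counting error only), and every library of Cdk4 was above every library of Cdk6. Cdk6 has 13989 bases of exon against 3249 for Cdk4, so scaling by the union of exons widens the gap, which was 3461-fold in counts alone (95% exact interval 1352 to 12705). The mean log2 ratio was 13.45 ± 0.49 with the union of exons, 11.34 without length scaling and 10.73 with median coding transcripts (1066 bases for Cdk4 and 697 for Cdk6), which narrow it.

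The promoters of the kinases are shown as sequence only, and a link of their letters to the level of either gene was not tested. Both are RefSeq windows of 300 bases in GRCm38.p6, from 250 bases before the annotated start to 50 after it, on the plus strand (chr10:127063285-127063584 for Cdk4 and chr5:3343643-3343942 for Cdk6). Capitals mark CACGTG, the palindromic E-box known to be bound by Myc and Max among other factors. This motif and that of the E2F factors were chosen after the letters of the windows had been seen.
Cdk4: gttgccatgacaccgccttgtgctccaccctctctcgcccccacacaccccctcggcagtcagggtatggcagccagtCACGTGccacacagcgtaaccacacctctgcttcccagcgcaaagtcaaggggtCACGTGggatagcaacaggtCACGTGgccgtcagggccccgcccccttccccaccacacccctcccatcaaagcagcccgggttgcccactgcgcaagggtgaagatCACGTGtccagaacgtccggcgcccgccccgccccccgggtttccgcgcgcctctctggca
Cdk6: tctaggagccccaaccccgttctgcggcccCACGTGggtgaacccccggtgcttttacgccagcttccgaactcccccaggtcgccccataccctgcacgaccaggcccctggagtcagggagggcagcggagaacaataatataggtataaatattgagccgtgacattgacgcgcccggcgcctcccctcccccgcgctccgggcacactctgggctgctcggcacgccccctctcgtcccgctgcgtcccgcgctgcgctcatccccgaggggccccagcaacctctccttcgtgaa
The Cdk4 window held CACGTG 4 times, beginning 172, 118, 98 and 11 bases before the start. The Cdk6 window held it 1 time, 220 bases before the start. Of 32851 RefSeq windows of this length, 7.15% held CACGTG and 8 held it at least 4 times. GC content was 67% in the Cdk4 window and 66.7% in the Cdk6 window, against a median of 52.7% over all windows. A match is a description of the letters and says nothing of binding in these cells. The annotated Cdk6 span begins upstream of this window, so other starts were not examined.

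The pocket proteins were all detected, and Rbl1 was the highest of them. Rbl1 encodes p107, which rises in cycling cells and binds the repressor E2Fs, and lies on the minus strand of chromosome 2 (157145893 to 157204534). It had 37.3, 29.1 and 31.3 TPM in replicates 1, 2 and 3, from 1092, 713 and 821 counts. Rbl2 encodes p130, the pocket protein typical of resting cells, and lies on the plus strand of chromosome 8 (91070057 to 91123844). It had 15.0, 12 and 10.6 TPM, from 555, 372 and 351 counts. Replicate 1 was the highest library for both genes. Rb1, the retinoblastoma tumour suppressor on the minus strand of chromosome 14 (73183673 to 73325822), had 10.7, 10.6 and 10.3 TPM, from 315, 260 and 270 counts.

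Per kilobase, Rb1 was below Rbl1 in 3 of 3 libraries, with a log2 ratio of -1.62 ± 0.17 (SD, n = 3) and a ratio of summed counts of 0.321 (95% exact interval 0.296 to 0.347). Rb1 and Rbl2 lay closer. Their log2 ratio was -0.49, -0.19 and -0.05 in replicates 1, 2 and 3, and their TPM ranges met, with the lowest library of Rbl2 at 10.6 and the highest of Rb1 at 10.7. Rbl1 exceeded Rbl2 by 1.38 ± 0.16 in log2, in 3 of 3 libraries. Of the pocket protein counts per kilobase, 58.5 ± 1.95% came from Rbl1, 22.5 ± 1.88% from Rbl2 and 19.0 ± 1.80% from Rb1. The sum of all 3 was 55.7 ± 6.46 TPM, against 590.0 ± 33.6 TPM for the D cyclins and 320.1 ± 17.4 TPM for both kinases.

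The promoter windows of Rbl1 and Rbl2 are shown because E2F factors are known to act on the Rbl1 promoter. A link of their letters to the level of either gene was not tested. They are RefSeq windows of the same kind in GRCm38.p6, chr2:157204485-157204784 on the minus strand for Rbl1 and chr8:91069807-91070106 on the plus strand for Rbl2, each written 5′ to 3′ on the strand of its gene. Capitals mark TTTCCCGC, TTTCGCGC, TTTGCCGC or TTTGGCGC on either strand, 4 spellings of the E2F motif.
Rbl1: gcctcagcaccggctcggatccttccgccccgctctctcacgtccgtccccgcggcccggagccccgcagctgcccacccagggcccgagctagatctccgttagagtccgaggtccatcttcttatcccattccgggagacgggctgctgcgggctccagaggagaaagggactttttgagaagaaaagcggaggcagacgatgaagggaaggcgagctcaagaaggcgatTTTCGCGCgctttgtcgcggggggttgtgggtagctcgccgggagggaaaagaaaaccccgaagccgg
Rbl2: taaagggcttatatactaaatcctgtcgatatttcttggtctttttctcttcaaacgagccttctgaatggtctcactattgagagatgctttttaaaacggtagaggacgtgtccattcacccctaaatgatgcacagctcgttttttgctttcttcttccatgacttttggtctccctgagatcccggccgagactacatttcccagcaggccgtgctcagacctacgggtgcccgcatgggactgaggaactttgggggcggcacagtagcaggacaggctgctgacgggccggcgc
The Rbl1 window held TTTCGCGC, beginning 18 bases before the start, and the Rbl2 window held none of the spellings. Of all 32851 windows, 2.26% held at least 1 of them. Among the members, 7 had windows, 9 in all, and an E2F spelling was also found in 1 of the windows of E2f3 (GCGGGAAA, which is TTTCCCGC on the other strand, 11 bases before the start). The other E2f3 window held CACGTG 1 time, 24 bases before its start. The windows of Ccnd3 and E2f1 held neither motif. The annotated E2f1 span begins upstream of its window, so other starts of E2f1 were not examined. No match says only that these letters are not in the window.

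**Figure D2:**
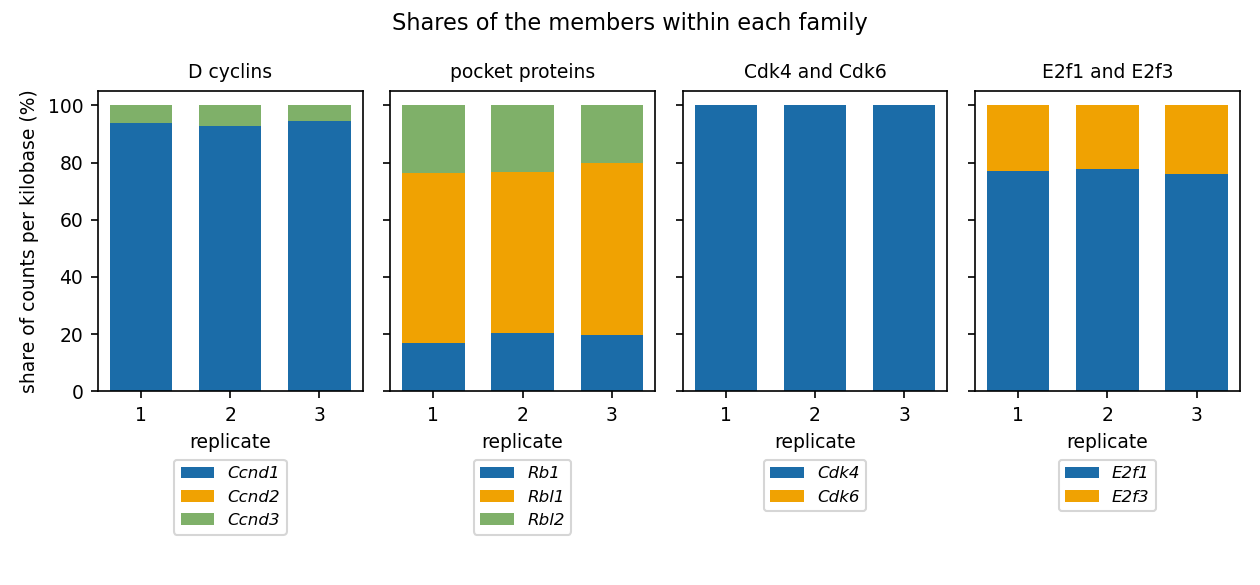
Share of the counts per kilobase of exon (%) that each gene held within its family, in replicates 1, 2 and 3. Ccnd1 made up 92.9 to 94.5% of the D cyclins and Rbl1 56.3 to 60.0% of the pocket proteins, and the Cdk6 share is too small to be drawn. The lengths are the union of exons. With the median coding transcript as the length, the mean Ccnd1 share was 65.7%.

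Both E2F members, which are activators of replication genes, were expressed. E2f1, on the minus strand of chromosome 2 (154559407 to 154569892), had 143, 136 and 138 TPM in replicates 1, 2 and 3, from 2204, 1752 and 1900 counts. E2f3, on the minus strand of chromosome 13 (29906575 to 29986063), had 42.3, 38.7 and 43.6 TPM, from 1120, 860 and 1034 counts. All libraries of E2f1 were above all of E2f3, with a log2 ratio per kilobase of 1.74 ± 0.08 (SD, n = 3). The summed counts per kilobase stood in a ratio of 3.34 (95% exact interval 3.20 to 3.50). E2f3 makes a long and a short protein from separate starts, and the table gives 1 count for both.

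In mean TPM over the union of exons the order was Ccnd1, Cdk4, E2f1, E2f3, Ccnd3, Rbl1, Rbl2, Rb1, Cdk6 and Ccnd2. The libraries of neighbours did not overlap from Ccnd1 down to E2f3, between Rbl1 and Rbl2, or between Rb1 and Cdk6. They overlapped between E2f3 and Ccnd3 (lowest library of E2f3 38.7, highest of Ccnd3 39.4 TPM), between Ccnd3 and Rbl1 (33.0 and 37.3 TPM) and between Rbl2 and Rb1. These ranges set different libraries side by side. Compared within the same library, Ccnd3 was above Rbl1 and Rbl2 above Rb1 in 3 of 3 libraries. E2f3 was above Ccnd3 in 2 of 3. Cdk6 with 4 counts and Ccnd2 with none could not be separated at this depth. Cdk4 was below Ccnd1 in 3 of 3 libraries, with a log2 ratio of -0.79 ± 0.17, but the ratio turned to 0.49 when the median coding transcript, 1066 bases for Cdk4 and 3740 for Ccnd1, was used as the length. The place of Ccnd3 also depended on length. It was above E2f3 with the longest transcript (61.8 against 32.6 TPM), and with the median coding transcript its 155 TPM was above both E2f1 (68.3 TPM) and E2f3 (21.0 TPM). With 3 libraries an exact two-sided sign-flip test cannot give a p below 0.25, so no p is given for the pairs.

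**Figure D3:**
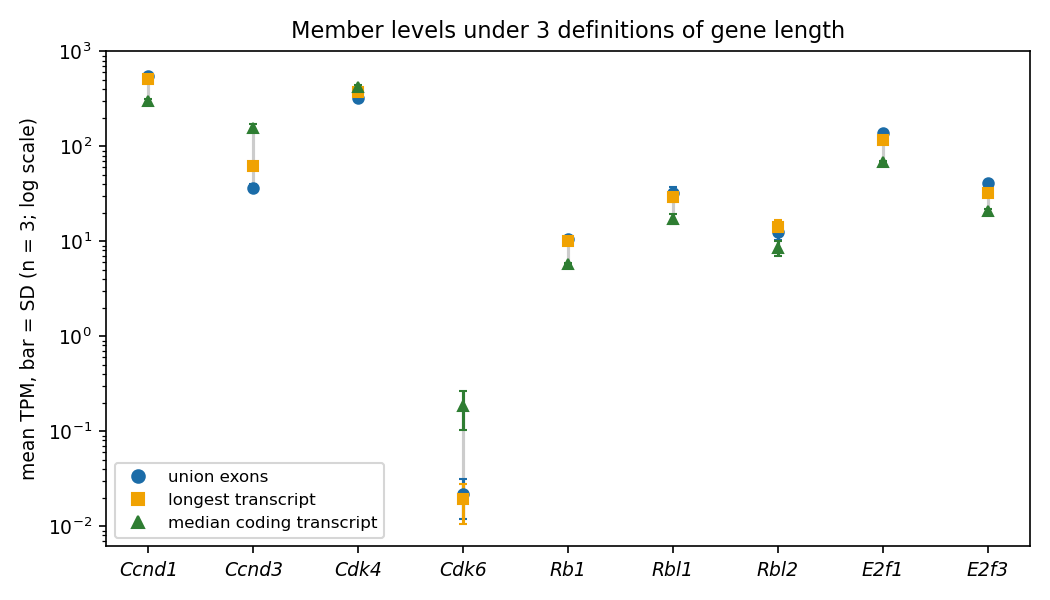
Mean TPM ± SD (n = 3, log scale) of the 9 members with counts under 3 definitions of gene length. Ccnd3 moves most among the abundant genes, between 36.8 and 155 TPM, while Cdk6 stays at or below 0.185 TPM under all 3.

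Reads from the opposite strand could add to some of these counts, since the library kit was directional but the strand setting of the counting is not given in the sources used here. Tspan31 overlaps 641 exon bases of Cdk4 and had 2773, 2351 and 2512 counts. Bysl overlaps 361 exon bases of Ccnd3 and had 1865, 1413 and 1780 counts, more than Ccnd3 itself in replicates 1 and 3. Lpar6 and Rcbtb2 overlap 408 and 488 exon bases of Rb1. Lpar6 had 355, 262 and 288 counts, close to the Rb1 counts. Aktip overlaps 693 exon bases of Rbl2 and had 804, 649 and 627 counts, more than Rbl2 in every library, and Gm45464, which is not analysed here, overlaps 892 exon bases of Rbl2. Oraov1 overlaps 1100 exon bases of Ccnd1, but its 220, 242 and 241 counts were few beside those of Ccnd1. None of the 10 members had fractional counts, which the table holds for 578 genes.

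The genes around the switch were mostly expressed. Of 70 further pathway genes in 9 lists, 66 were detected, against 47.3% of all named genes. All 8 E2F and DP partners were detected, with a median of 32.8 TPM. Tfdp1, the main dimer partner of E2Fs, was the highest at 198 ± 5.53 TPM. E2f4, which represses with p107 and p130, had 106 ± 5.34 TPM and E2f2, an activator, 54.8 ± 6.95 TPM. Summed, the activators E2f1, E2f2 and E2f3 reached 248, 228 and 229.7 TPM in replicates 1, 2 and 3, above the 147, 141 and 130.3 TPM of the pocket-bound repressors E2f4 and E2f5. With median coding transcripts as the lengths the sums were 119, 111 and 111 TPM against 73.5, 71.5 and 65.5 TPM. All 17 E2F target genes were detected, with a median of 172 TPM. Pcna, the replication clamp, had 469 ± 9.87 TPM, the helicase subunit Mcm3 290.2 ± 9.31 TPM, and Uhrf1, which recruits maintenance DNA methylation, 257 ± 18.6 TPM.

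The inhibitors of the kinases were mostly detected. Of 7 INK4 and CIP/KIP genes 5 were detected. Cdkn2a, whose count joins the p16 and p19 transcripts of the locus, had 155 ± 14.7 TPM, Cdkn2d 111 ± 9.82 TPM and Cdkn2c 9.26 ± 0.697 TPM, and Cdkn2b had no counts. Together the INK4 genes reached 298, 280.3 and 249.7 TPM in replicates 1, 2 and 3, each below the Cdk4 value of the same library, as was also so under the other definitions of gene length. Cdkn2a was the largest part of this sum, and its p16 part cannot be told from its p19 part. Cdkn1b, the p27 inhibitor, had 89.3 ± 3.65 TPM, and Cdkn1c, the p57 inhibitor, was not detected at 2.53 ± 0.975 TPM. Cdkn1c had 1.3, 2.15 and 0.972 CPM in replicates 1, 2 and 3, so it missed the rule narrowly and in replicate 3 only. At a minimum of 0.5 CPM, 6 of the 7 inhibitor genes were detected. Among G1/S cyclins and kinases 6 of 7 were detected, led by the Cdk-binding protein Cks1b (284 ± 16.9 TPM), the S-phase cyclin Ccna2 (216 ± 11.7 TPM) and the cyclin E gene Ccne2 (81.0 ± 1.74 TPM). The germ-line cyclin Ccna1 had no counts. Cdk2, the partner of cyclins E and A, had 43.7 ± 2.60 TPM, which is lower per length than Cdk4 in every library.

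The remaining lists were detected almost in full. The CDK-activating kinase was detected in 3 of 3 genes, with Ccnh at 92.2 ± 5.49, Cdk7 at 90.1 ± 8.53 and Mnat1 at 21.9 ± 0.81 TPM. The MuvB core, which joins p107 or p130 to form the repressive DREAM complex, was detected in 6 of 6 genes counted with Mybl2, led by Rbbp4 (142 ± 0.834 TPM), Mybl2 (94.4 ± 3.58 TPM) and Lin54 (41.0 ± 4.96 TPM). Pocket protein partners were detected in 8 of 8 cases, led by the phosphatase subunit Ppp1ca (509 ± 20.4 TPM), the deacetylase Hdac2 (346 ± 13.9 TPM) and Ppp1cc (278 ± 6.52 TPM). Of 8 genes of D cyclin and Cdk4 stability 7 were detected, led by the chaperone Hsp90ab1 (6877 ± 736 TPM), its Cdk4-loading partner Cdc37 (87.1 ± 1.32 TPM) and Gsk3b (74.3 ± 11.1 TPM), a kinase that marks cyclin D1 for export and breakdown. Cryab was not detected, with 2.36, 3.30 and 6.19 TPM in replicates 1, 2 and 3. In CPM it had 0.959, 1.43 and 2.59, so it missed the rule narrowly and in replicate 1 only. At a minimum of 0.5 CPM, 8 of the 8 genes of this list were detected. Other cyclin-dependent kinases were detected in 6 of 6 cases, led by Cdk1 (207 ± 8.51), Cdk16 (65.2 ± 4.67) and Cdk9 (49.5 ± 7.75 TPM).

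**Figure D4:**
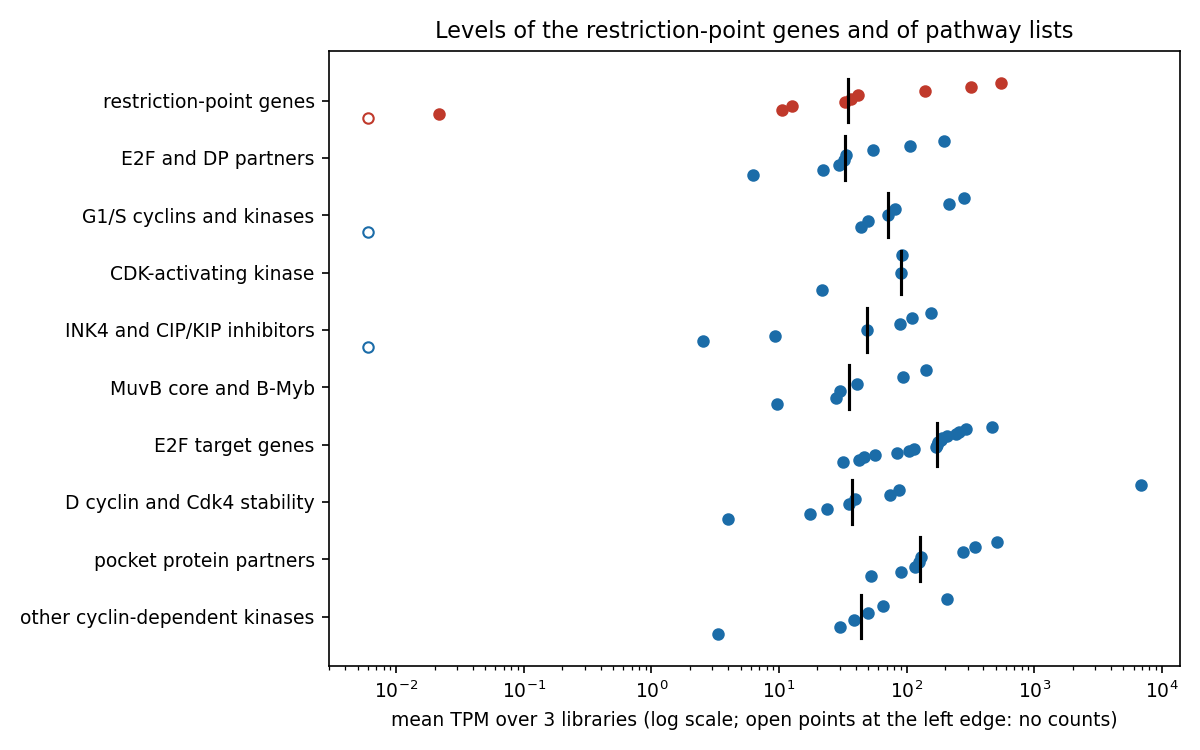
Mean TPM over 3 libraries (log scale) of the 10 members (red) and of the genes of 9 pathway lists (blue), with the median of each list as a black line and open points for genes without counts. The members span from 0 to 553 TPM, while all 17 E2F target genes lie at 31.5 TPM or more.

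For the 8 members with enough counts for a test, no spread between libraries was called. The test asks whether a gene varies more than the trend of genes at its level, fitted on the same 3 libraries. It does not test whether the libraries were equal. In edgeR's negative binomial deviance test 0.643% of 11821 tested genes were called at a Benjamini-Hochberg adjusted p under 0.05, and 0 of the 8 members tested were called, so nothing particular to the members is read from this count. None of the 8 had an unadjusted p under 0.05, against 698 of all tested genes, and Ccnd2 and Cdk6 had too few counts to be tested. Rbl2 had the smallest p of the members (edgeR deviance test, unadjusted p = 0.283, adjusted p = 1) and the largest coefficient of variation, 14.5%. The fitted biological variation for genes of its level was 12%, which leaves out the counting error that the 14.5% includes. E2f1 had the smallest coefficient of variation of the members, 1.13%, lower than in all but 1.09% of tested genes. Rb1 (3.03%) and Ccnd1 (3.79%) were also well below the median of 10% over tested genes, and Cdk4 (8.35%), Rbl1 (9.11%) and Ccnd3 (9.79%) were near it. All of these values include counting error. A coefficient from 3 libraries is itself uncertain, so the low values do not show that these genes are unusually steady. A p that misses the threshold does not show that the libraries were alike.

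**Figure D5:**
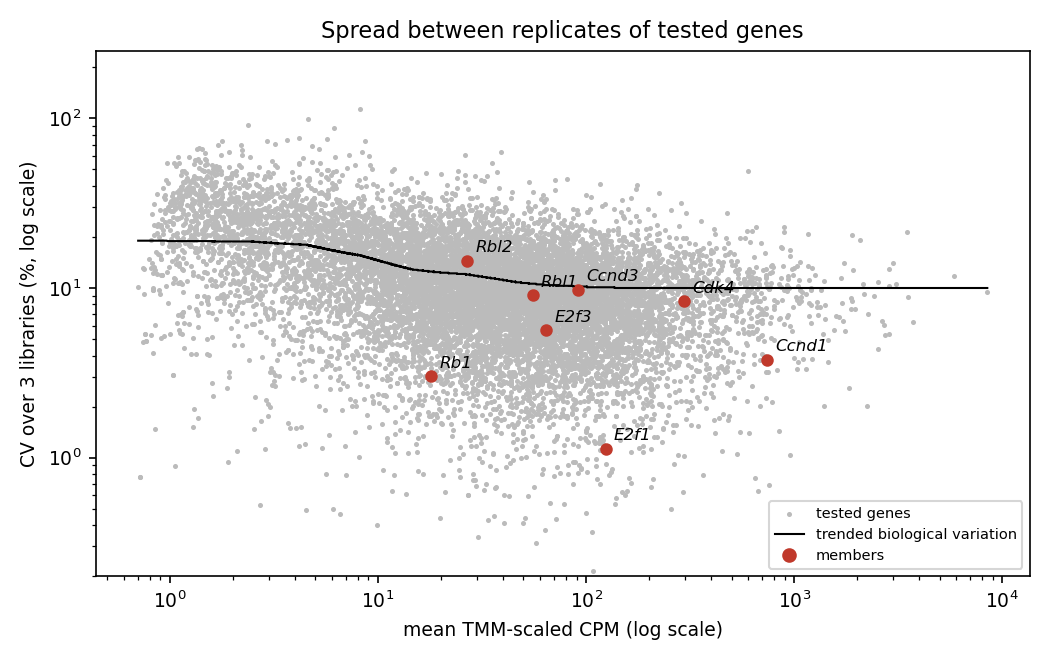
Coefficient of variation over 3 libraries (%, log scale) against the mean TMM-scaled CPM (log scale) for 11821 tested genes in grey, with the 8 tested members in red and the fitted biological variation as a line. Rbl2 lies above the line, and E2f1, Rb1 and Ccnd1 lie well below it. The points include counting error and the line does not.

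Single libraries differed for a few members in opposite directions. In log2 of the TMM-scaled CPM of replicate 2 against the mean of the others, Cdk4 was 0.20 and Ccnd3 0.22, while Rbl1 was -0.17. Rbl2 was 0.31 in replicate 1 and -0.31 in replicate 3. The central 90% of tested genes ran between -0.41 and 0.36 in replicate 2, between -0.36 and 0.44 in replicate 1 and between -0.53 and 0.36 in replicate 3, and all of these member values lie within those ranges. The median over the 8 members was -0.03, 0.00 and -0.03 in replicates 1, 2 and 3, beside a median of 0.00 over all genes. Long transcripts were lower in replicate 2 (slope -0.12 per doubling of exon length, SE 0.00212, over 11774 genes) and higher in replicate 1 (slope 0.09, SE 0.00231). With the trend of each library removed, Cdk4 was 0.15, Ccnd3 0.34 and Rbl1 -0.12 in replicate 2, and Rbl2 was 0.23 in replicate 1 and -0.30 in replicate 3.

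The genes nearest to a member over the 3 libraries were found by the root mean square difference in log2(TPM + 0.1), which compares levels within the same libraries. Nearest to Ccnd1 were Eif2s3x (0.0563), Got2 (0.0569) and Fbln1 (0.0778). Crabp1 (0.0267) and Atxn10 (0.0272) were among the nearest to Cdk4, and Ccdc14 (0.0129), Atg7 (0.0281) and Lgi1 (0.0378) to Rb1. With 3 libraries this is a likeness of level more than of pattern.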

How the data were processed

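Poly(A) RNA of 3 libraries was measured by RNA-seq with a directional kit, per the labels' protocols. The submitters' processing notes name STAR and mm10, without version or role; which tool counted the reads, on which annotation and with what strand setting, is not given in the sources used here. The authors deposited estimated counts by symbol, with no depth scaling, and these were rounded to whole numbers. Of 24411 rows, 27 named by calendar dates were left out (0.281 to 0.306% of counts). Genes were matched by symbol to GENCODE vM21 (the same build), 24005 of 24384 (98.4%), 655 through older symbols. TPM used the union of annotated exons. Pair ratios used counts per kilobase with 0.5 counts added; intervals are exact (Clopper-Pearson, 95%) and cover counting error only, and the limit of a count of 0 is 3 counts over the 3 libraries together. At depths of 13942014 to 17731376 counts, 1 count was worth under 0.1 CPM.

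Spread between libraries was tested in R 4.3.3 with edgeR 4.0.16 (intercept-only negative binomial fit, TMM, filterByExpr, trended dispersion, deviance against chi-square with 2 degrees of freedom, Benjamini-Hochberg over all genes). The test was also run on data simulated with its own fitted dispersion. Such data cannot show how well the test holds for the real libraries. DESeq2 1.42.0 gave alternative size factors. Every pair of libraries differed by more than sampling noise over all genes, so none was treated as a duplicate. Python 3.11.15, pandas 2.3.3 and SciPy 1.17.1 served for the rest. The members, lists and tests were chosen with earlier results of these data known. Named genes were the members, the 3 highest and every undetected gene of each list, genes set beside a member or overlapping one, and the 3 nearest to Ccnd1, Cdk4 and Rb1. 1 of these nearest genes is not reported here. Cdk3, fixed in a list, is not analysed here, and protein sequences were not used here.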

Additional observations from a re-analysis of the deposited data

Results flagged for a closer look

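The 27 rows named by calendar dates were left out of all levels and held 139034 counts over the 3 libraries. They were not assigned to genes here, and all 10 members were listed under their own symbols. No test for an outlying library was run, since the group had 3 samples.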

How the results depend on the processing

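The detection of 8 members was the same at a minimum of 0.5 or 5 CPM, with TMM scaling and without each replicate (8 in every case), and 0 members were called as varying under the 8 alternatives to the edgeR test. The count of varying genes was 116 with a common dispersion and 36 to 52 without 1 replicate (36 without replicate 1, 40 without replicate 2), against 76 otherwise; in these last cases fewer libraries entered the fit. Gene length moved the ratios most. With the longest transcript, the median coding transcript and no length scaling, in that order, the log2 ratio of Ccnd1 to Ccnd3 was 3.06, 0.94 and 3.01, that of Rb1 to Rbl2 -0.49, -0.53 and -0.57, that of Rbl1 to Rbl2 1.06, 1.03 and 1.05, and that of Cdk4 to Ccnd1 -0.46, 0.49 (a reversal) and -1.32. The ratio of Cdk4 to Cdk6 was 10.73 with the median coding transcript and 11.34 without length scaling, and that of E2f1 to E2f3 was 1.85 with the longest transcript and 0.96 without scaling. In the same order of all 3 settings, shares were 89.2, 65.7 and 88.9% for Ccnd1, 10.8, 34.3 and 11.1% for Ccnd3, 55.0, 54.6 and 55.2% for Rbl1, and 26.3, 26.8 and 26.8% for Rbl2. These shifts follow from the lengths used. Without 1 replicate, the ratios and shares stayed within 1 SD of the values given; the Rb1 to Rbl2 ratio ran between -0.34 and -0.12. Of 165 further recomputed values (single levels, detected genes per list, bounds and library differences), 145 moved by less than their spread or by less than 1.5 times and 20 by more, all of them levels or bounds. No paired analysis was possible because there was 1 group. Depth limits Ccnd2 and Cdk6, at 0 and 4 counts.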
